A study of Mus musculus with 4 samples.

Results

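Deaf1 ChIP-seq peaks were examined at 10 genes whose products act in the adhesion and fusion of muscle cells, out of 21631 protein-coding genes of the autosomes and X. The genes were Mymk, Cdh2, Cdh15, Ncam1, Itgb1, Cav3, Dock1, Rac1, Dysf and Myof. A peak was counted for a gene when it lay inside, or within 5 kb of, the gene's RefSeq span in mm10. The chromatin came from C2C12 cells, a mouse myoblast line that fuses into myotubes in culture. The labels call the cells myocytes and the series' description calls them differentiated myoblasts, with no day of differentiation given. Cells were fixed with 1% formaldehyde and the chromatin was digested with enzyme. There were 2 Deaf1 ChIP samples and 2 input samples, all from the same line with no treatment or mutation. Only the ChIP samples had peak lists to analyse, 1 for each replicate. The labels do not say whether the replicates came from separate cultures, so the spread between them may be technical.

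Myoblasts first recognise and adhere to each other through cadherins, immunoglobulin-type adhesion molecules and integrins. Signals from these contacts reach the actin cytoskeleton through Rac1 and its exchange factor Dock1, and the membranes then merge with the help of the muscle protein myomaker. Ferlins and caveolins act in membrane traffic and repair during and after fusion. Deaf1 is a DNA-binding transcription factor with a SAND domain, which contacts a short core sequence, TTCG.

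Deaf1 peaks found in both replicates stood at 8 of the 10 genes, all but the fusion gene Mymk and the caveolin gene Cav3. A shared region here is a block in which peaks of both replicates overlap by at least 1 bp. Of all protein-coding genes, 63.6% had such a region under the same rule, so the share among the 10 genes was not far from the general level. Genes of like length, 0.8 to 1.25 times that of each member, had a shared region in 64.1% (for Mymk) to 86.1% (for Dock1) of cases. All 8 genes had a shared region within 1 kb of an end of the span, which 54.0% of all genes had. Only 5 of them did when the replicates' summits had to lie within 100 bp, a rule for which the share of all genes was not computed. A region with a fold of 10 or more in both replicates was found at 5 genes, namely Cdh2, Cdh15, Ncam1, Dock1 and Myof, against 46.7% of all genes. At least 2 shared regions were found at 5 genes, Cdh2, Cdh15, Ncam1, Dock1 and Dysf, against 29.4% of all genes. Most of these 5 genes are long: as many shared regions as the member had were found in 41.4% of genes of like length for Ncam1, 40.1% for Dock1, 22.3% for Cdh2, 13.2% for Cdh15 and 4.9% for Dysf. There was a single condition and no control peak list, so none of these counts was tested and signal common to promoters cannot be told apart from Deaf1 binding.

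**Figure D1:**
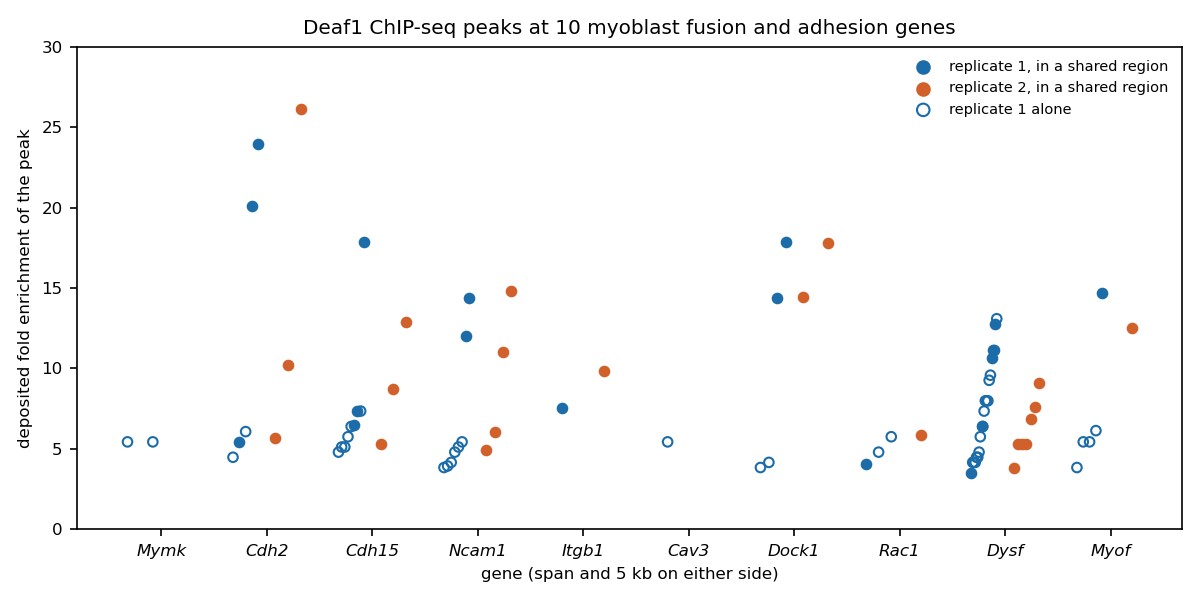
Deposited fold enrichment (vertical axis) of every peak inside or within 5 kb of each of the 10 genes (horizontal axis), with replicate 1 in blue and replicate 2 in orange. Filled points lie in regions found in both replicates and open points in replicate 1 alone. Cdh2 holds the highest points of both replicates, and Mymk and Cav3 hold open points only.

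Replicate 1 had 59 peaks at the 10 genes and replicate 2 had 22. All 22 peaks of replicate 2 lay in shared regions, against 93.9% of that whole list. Of the 59 peaks of replicate 1, 19 did (32.2%), against 35.0% of that list. With replicate 1 alone all 10 genes had a peak, as did 72.9% of protein-coding genes, and with replicate 2 alone 8 had one, against 64.2%. The 19 shared regions had a median lower fold (the lower of the 2 replicate values) of 7.54, against 9.18 over all 22880 shared regions. The fold was higher in replicate 1 in 11 of the 19, against 69.8% of all shared regions. The replicates' highest summits were at most 100 bp apart in 14 of the 19, against 83.2% of all. At the first Dysf region 2 peaks of replicate 2 tied in fold, and the lower-coordinate one, 340 bp away, was taken. The other was 3 bp away. By the nearest replicate 2 summit the count was 15 of the 19, a measure not computed over all regions.

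The RefSeq promoter table (GRCm38.p6, the assembly behind mm10) held 7 entries for 6 of the 10 genes, each running from 250 bases before to 50 after a transcription start. A shared region overlapped 5 of the 7 entries, against 47.9% of the 21045 entries of protein-coding genes. The letters TTCG, read on both strands, occurred in 2 of the 7, those of Itgb1 and Myof, against 49.4% of all entries. Both held it at least 2 times, as did 20.1% of all. Over the whole table TTCG was held by 62.0% of the promoters that a shared region overlapped and by 37.9% of the rest. The overlapped ones also had more CpG dinucleotides, with a median of 24 against 4, and TTCG itself contains a CG. Promoters of like CpG count were not compared, so the part of CpG content in this difference was not tested. No TTCG was found in the overlapped entries of Cdh15, Dock1 and Dysf, which says only that these letters are not in those 300 bases. Below are the promoters of Itgb1 and Myof, which have both peaks and TTCG, of Dock1 and Cdh15, which have peaks without it, and of Cav3, which has no peak there. Capitals mark TTCG or its reverse complement CGAA.
Itgb1, chr8:128685404-128685703, plus strand: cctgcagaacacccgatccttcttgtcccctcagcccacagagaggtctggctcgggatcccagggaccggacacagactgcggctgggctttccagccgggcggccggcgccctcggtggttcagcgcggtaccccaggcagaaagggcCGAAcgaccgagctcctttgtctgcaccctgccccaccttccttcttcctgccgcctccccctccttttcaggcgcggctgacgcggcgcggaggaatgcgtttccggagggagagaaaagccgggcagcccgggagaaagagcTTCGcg
Myof, chr19:38043528-38043827, minus strand: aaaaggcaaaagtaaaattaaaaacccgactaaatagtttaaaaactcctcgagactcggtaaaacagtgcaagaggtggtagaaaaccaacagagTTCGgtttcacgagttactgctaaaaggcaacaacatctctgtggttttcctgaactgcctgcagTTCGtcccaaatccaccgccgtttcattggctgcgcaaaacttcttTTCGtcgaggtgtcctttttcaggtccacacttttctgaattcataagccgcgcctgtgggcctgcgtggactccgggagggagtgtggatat
Dock1, chr7:134670437-134670736, plus strand: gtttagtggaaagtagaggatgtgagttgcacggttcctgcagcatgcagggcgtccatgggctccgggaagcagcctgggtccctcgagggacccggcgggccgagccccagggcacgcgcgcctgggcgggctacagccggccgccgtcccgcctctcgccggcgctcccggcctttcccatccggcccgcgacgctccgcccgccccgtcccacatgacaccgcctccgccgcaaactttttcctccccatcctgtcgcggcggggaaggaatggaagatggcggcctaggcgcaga
Cdh15, chr8:122848124-122848423, plus strand: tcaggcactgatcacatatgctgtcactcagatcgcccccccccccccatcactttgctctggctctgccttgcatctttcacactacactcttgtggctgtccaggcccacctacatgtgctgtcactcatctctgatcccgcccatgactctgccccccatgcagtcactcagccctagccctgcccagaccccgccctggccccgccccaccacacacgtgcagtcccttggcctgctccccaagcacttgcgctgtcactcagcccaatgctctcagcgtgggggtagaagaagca
Cav3, chr6:112459255-112459554, plus strand: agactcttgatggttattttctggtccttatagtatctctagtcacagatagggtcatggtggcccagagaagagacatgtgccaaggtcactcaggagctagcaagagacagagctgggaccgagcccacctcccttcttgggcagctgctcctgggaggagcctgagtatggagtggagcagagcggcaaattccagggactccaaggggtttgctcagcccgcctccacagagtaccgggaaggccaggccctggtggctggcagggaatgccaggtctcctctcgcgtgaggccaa
Counted from the 5′ end of each entry, TTCG or its complement begins at bases 151 and 295 of the Itgb1 promoter and at 97, 162 and 208 of the Myof promoter. The E-box CAGCTG, a palindrome bound by myogenic factors, occurred in 1 of the 7 entries, that of Cav3, and in 15.7% of all entries. Any E-box (CANNTG) occurred in 4 of the 7, with 4 copies at Cdh15, and in 69.0% of all, the CAGCTG sites included. CpG dinucleotides numbered 34 at Dock1, 27 at Itgb1, 15 at Myof, 7 at Cdh15 and 6 at Cav3.

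Mymk encodes myomaker, the muscle membrane protein that myoblasts need in order to fuse. Its span (chromosome 2, 27061636 to 27072161, 10.5 kb) held no peak of either replicate. Replicate 1 had 2 peaks outside its lower-coordinate end, with summits 1600 and 2780 bp away and the same fold of 5.43. Each rested on a summit pileup (the number of fragments covering the summit) of 16 fragments, with an exact Poisson interval at 95% of 9.1 to 26.0 that covers counting error only. The nearest replicate 2 peak lay 33455 bp beyond the span. Among the 3904 replicate 1 peaks with that pileup in the whole list, 6.33% had a replicate 2 partner. The lack of a partner at Mymk was therefore usual for peaks of this height.

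Cav3 encodes caveolin-3, the muscle caveolin of the sarcolemma. The gene (chromosome 6, 112459505 to 112472872, 13.4 kb) had a single replicate 1 peak, 453 bp inside its higher-coordinate end and 12914 bp downstream of its RefSeq start. Its fold was 5.43 and its pileup 16 fragments, the same as at Mymk. Replicate 2 had no peak in the window, and its nearest lay 16228 bp beyond the span.

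**Figure D2:**
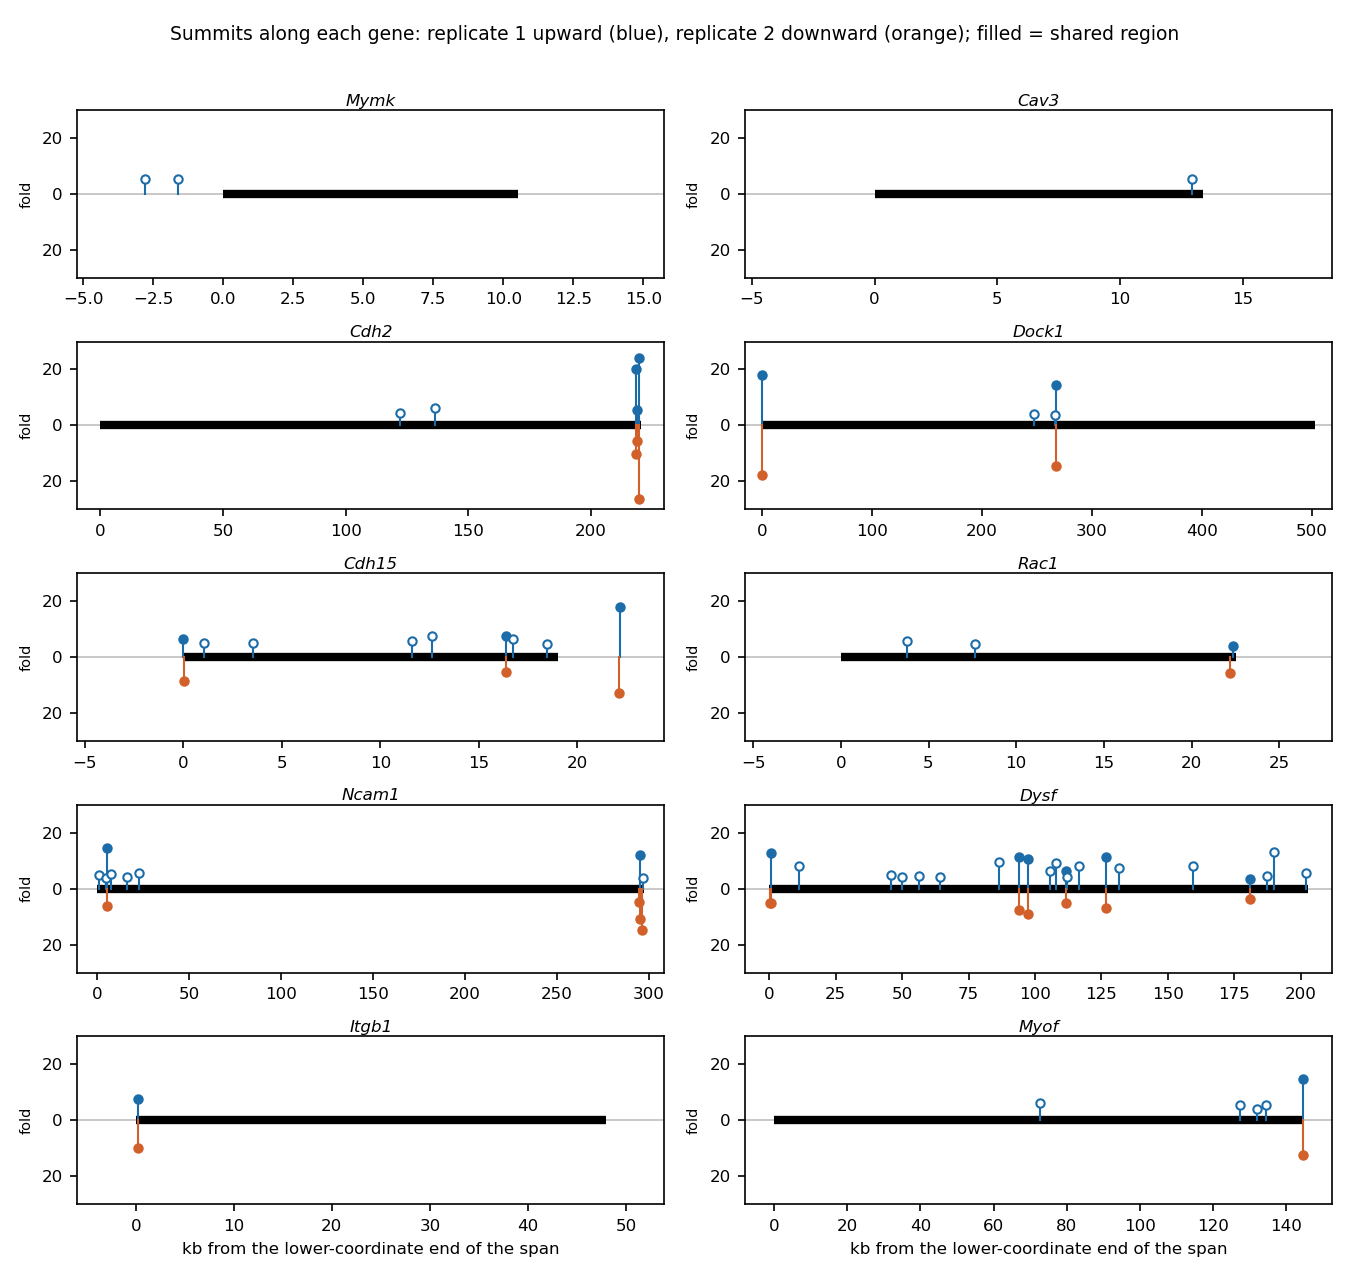
Position of each peak summit along the 10 genes, in kb from the lower-coordinate end of the span (black bar), with the deposited fold of replicate 1 drawn upward in blue and of replicate 2 downward in orange. Filled points belong to shared regions and open points to replicate 1 alone. The 8 genes with shared regions each have filled points near an end of the span, and Dysf and Dock1 have further ones deep inside.

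Cdh2, which encodes N-cadherin, a calcium-dependent cell adhesion molecule of myoblasts and neurons, had the strongest region of the 10 genes. All 3 of its shared regions lay near the higher-coordinate end of its 220.4 kb span on chromosome 18 (16588877 to 16809246). The region that reaches over the end, 16808103 to 16809903, had folds of 23.9 in replicate 1 and 26.2 in replicate 2. The summits were 2 bp apart, 942 and 940 bp inside the end. The pileups were 74 fragments (interval 58.1 to 92.9) and 68 fragments (52.8 to 86.2), over the lowest background of each list. The −log10 q-values were 81.4 and 80.0. Its lower fold exceeded that of 95.4% of all shared regions.

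The other shared regions of Cdh2 were weaker and lay further inside. At 2220 and 2222 bp from the end the fold was 20.1 in replicate 1 and 10.2 in replicate 2. These summits too were 2 bp apart. The pileups there, 62 and 26 fragments, had intervals of 47.5 to 79.5 and 17.0 to 38.1. Between these regions stood a small one with folds of 5.43 and 5.69. Deep inside the gene replicate 1 had 2 further peaks, with folds of 4.47 and 6.07, where replicate 2 had none.

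Cdh15 encodes M-cadherin, the cadherin of skeletal muscle cells, and its regions were spread over and beyond its span of 19024 bp on chromosome 8 (122848374 to 122867397). At its RefSeq start the fold was 6.45 in replicate 1, whose summit lay 33 bp upstream of the start, and 8.72 in replicate 2, whose summit lay 38 bp downstream. These summits fall at bases 218 and 289 of the printed promoter, which holds no TTCG. Inside the gene, 2660 and 2638 bp before its higher end, a second region had folds of 7.34 and 5.31. The strongest region in the window, with folds of 17.9 and 12.9, lay outside the gene, 3166 and 3091 bp beyond the same end. That region stands at an end of Gm39273, a long noncoding RNA gene, with summits 150 and 75 bp inside it. With a window of 2 kb or less this region no longer counts and the lower fold at Cdh15 is 6.45. Replicate 1 had 6 further peaks at Cdh15 with folds of 4.79 to 7.34, so that it had 9 peaks in all against 3 in replicate 2.

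Ncam1 encodes the neural cell adhesion molecule, an immunoglobulin-type adhesion protein that muscle cells also carry. Its 297.3 kb span on chromosome 9 (49502129 to 49799393) had 2 shared regions, near opposite ends. Near the higher end a wide region, 49796726 to 49798529, held 1 peak of replicate 1 with a fold of 11.98 and 3 peaks of replicate 2 with folds of 4.93, 11.0 and 14.8. The highest summits of the replicates lay 1135 bp apart in this region, 2097 and 962 bp inside the end. The nearest replicate 2 summit was 170 bp from that of replicate 1. The replicates thus placed the highest point of the same region differently, and with summits required within 100 bp the lower fold at Ncam1 is 6.07, from its other region. Between this region and the end, replicate 1 alone had a peak 364 bp inside, with a pileup of 37 fragments over a background of 8.68 and a fold of 3.93. Of the 470 replicate 1 peaks with that pileup, at any background, 90.2% had a partner. Its −log10 q of 10.3 was like that of 19 fragments over a background of 2.13. At a pileup of 19 fragments, at any background, 12.6% had a partner. Shares by q-value or by background were not computed, and why this peak had no partner was not tested. The peak stood 263 bp from the nearest peak of replicate 2.

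At 5016 and 5033 bp inside the lower end, Ncam1 had a region with folds of 14.4 in replicate 1 and 6.07 in replicate 2. The summits were 17 bp apart. The pileups were 44 fragments (32.0 to 59.1) and 15 fragments (8.4 to 24.7). The other replicate 1 peaks, without a partner, lay up to 22701 bp inside the same end with folds of 3.83 to 5.43.

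Itgb1 encodes integrin beta 1, the common partner of many integrin alpha chains that bind the extracellular matrix. Both replicates had a single peak in its window (chromosome 8, span 128685654 to 128733579), and they lay on each other. The summits were 257 and 250 bp downstream of the RefSeq start, 7 bp apart. The folds were moderate, 7.54 in replicate 1 and 9.83 in replicate 2, and the pileups were among the highest of the 10 genes. The pileup was 77 fragments (interval 60.8 to 96.2) in replicate 1 and 81 (64.3 to 100.7) in replicate 2, above 96.2% and 97.0% of peaks in the lists. The local background was 9.35 and 7.34 fragments, with only 134 of 65606 and 103 of 26503 peaks higher. The fold alone would place the region above only 39.9% of all shared regions. The region covers the whole of the printed promoter, CGAA and TTCG included, and its summits lie downstream of them.

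Rac1 encodes a small GTPase that drives actin remodelling at the contact between fusing cells. Its shared region had the lowest lower fold among the strongest regions of the 8 genes, and the highest pileup of the 10 genes in replicate 1. The folds were 4.05 in replicate 1 and 5.84 in replicate 2, at summits 164 and 358 bp inside the higher end of the span (chromosome 5, 143505481 to 143528031). The pileups were 82 fragments (65.2 to 101.8) and 74 (58.1 to 92.9), above 97.8% and 93.8% of the peaks in the lists. The backgrounds were 19.5 and 11.8 fragments, exceeded by 29 and 47 peaks. By fold the region exceeded 3.17% of all shared regions. It no longer counts as shared when a fold of 5 or more is required, nor when summits must lie within 100 bp, since they were 194 bp apart. What raised the background at Itgb1 and Rac1 was not tested. The other 17 shared regions had the lowest replicate 2 background, 1.64 fragments, and 14 of them also had the lowest replicate 1 background, 2.13. Across the full lists, only 21.4% (replicate 1) and 25.0% (replicate 2) of peaks stood above the lowest level. Such a background is thus common and marks no trait of the 10 genes.

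**Figure D3:**
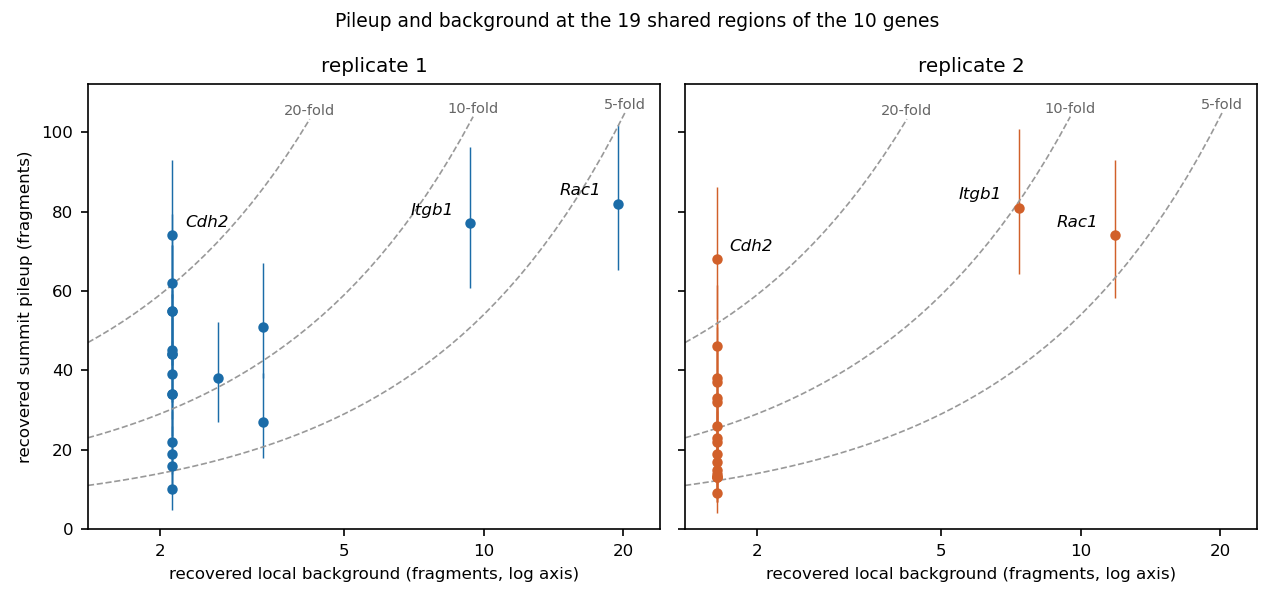
Recovered summit pileup (fragments, with exact Poisson 95% intervals) against recovered local background (fragments, log axis) for the highest peak of each replicate in the 19 shared regions, replicate 1 at left and replicate 2 at right. Dashed lines join equal folds of 5, 10 and 20. Rac1 and Itgb1 stand far to the right at pileups of 74 to 82 fragments, and Cdh2 reaches 74 and 68 fragments over the lowest background.

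Dock1 encodes an exchange factor that activates Rac1 downstream of adhesion receptors. It is the longest of the 10 genes, 503.0 kb on chromosome 7 (134670687 to 135173647), and had 2 shared regions of like fold in both replicates. At the RefSeq start the folds were 17.9 in replicate 1 and 17.8 in replicate 2. Their summits lay 256 and 79 bp downstream. The pileups were 55 fragments (41.4 to 71.6) and 46 (33.7 to 61.4). The region overlaps the printed promoter, whose 34 CpG dinucleotides exceed the count in 89.7% of entries. The second region lay 267387 and 267265 bp inside the gene, with folds of 14.4 in both replicates. It stands at the higher-coordinate end of Insyn2a, a protein-coding gene nested in Dock1, with summits 356 and 478 bp inside that gene. The peak cannot be assigned to Dock1 rather than Insyn2a from position. The summits of the replicates were 177 and 122 bp apart in these regions, so neither counts when they must lie within 100 bp. The remaining replicate 1 peaks at Dock1 had folds of 3.83 and 4.15.

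Dysf encodes dysferlin, a ferlin that takes part in membrane repair in muscle, and had the most peaks of the 10 genes. Its 202.7 kb span on chromosome 6 (84008361 to 84211060) held 21 peaks of replicate 1 and 7 of replicate 2, in 6 shared regions. Of 592 genes of like length, 5.91% had as many replicate 1 peaks. The folds at Dysf were modest all the same, and the strongest shared region exceeded 48.7% of all shared regions.

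At the first of its promoters in RefSeq, Dysf had a replicate 1 peak with a fold of 12.8 and a summit 279 bp downstream of the start. Replicate 2 had 2 small peaks in the same region, each with a fold of 5.31, at 61 bp upstream and 282 bp downstream. A long noncoding RNA gene, Gm33024, has an end 15 bp from the replicate 1 summit. At the second promoter, replicate 1 alone had a peak with a fold of 7.98, 95 bp downstream of that start, and a pileup of 24 fragments. Of replicate 1 peaks with that pileup 36.4% had a partner.

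Further inside Dysf stood a group of 4 shared regions. At 93824 bp the folds were 11.2 in replicate 1 and 7.59 in replicate 2, with both summits on the same base. At 97477 and 97468 bp they were 10.6 and 9.10, the highest lower fold of the gene. At 111508 and 111489 bp they were 6.39 and 5.31, and at 126565 and 126554 bp they were 11.2 and 6.83. Summits in this stretch agreed within 19 bp, although the folds of replicate 1 were the higher in each of these 4 regions. The last shared region, about 181 kb in, was the weakest of the 19, with folds of 3.51 and 3.79 and pileups of 10 and 9 fragments. It was lost when a fold of 5 or a −log10 q of 5 was required. At 12955 bp inside the higher end, replicate 1 alone had a peak with a fold of 13.1 and a pileup of 40 fragments (28.6 to 54.5). Both values were higher than at any of the gene's shared peaks in that list. Of the 389 replicate 1 peaks with that pileup 95.4% had a partner, and here the nearest replicate 2 peak was 8513 bp away.

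Myof encodes myoferlin, a ferlin relative of dysferlin that acts in myoblast fusion, and its shared signal lay at a single place. At its RefSeq start, the higher end of its span on chromosome 19 (37899036 to 38043577), the folds were 14.7 in replicate 1 and 12.5 in replicate 2. The summits were 96 and 113 bp downstream of the start and 17 bp apart. The pileups were 45 fragments (32.8 to 60.2) and 32 (21.9 to 45.2). The region was narrow, 270 bp, and covers 81 bases at the 3′ end of the printed promoter. The 3 TTCG sequences of that promoter lie upstream of the region, and 0 of them inside it. The other 4 replicate 1 peaks, 10056 to 71839 bp downstream, had folds of 3.83 to 6.13 and no partner. Compared with Dysf, Myof thus had 1 shared region against 6. Of 870 genes as long as Myof, 85.1% had at least 1.

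Peaks of replicate 1 without a partner were mostly low, in the whole list as at the 10 genes. Of the 40 such peaks at the 10 genes, 38 had a pileup under 30 fragments. The same share over all replicate 1 peaks without a partner was not computed, so this count marks no trait of the 10 genes. Over the whole list the share of replicate 1 peaks with a partner was 1.04% at a pileup of 11 fragments, 51.9% at 27 and 97.6% at 44. The 2 exceptions were the peaks described above at Ncam1, over a raised background, and at Dysf. Replicate 1 peaks with 44 or more fragments at the 10 genes all had a partner.

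**Figure D4:**
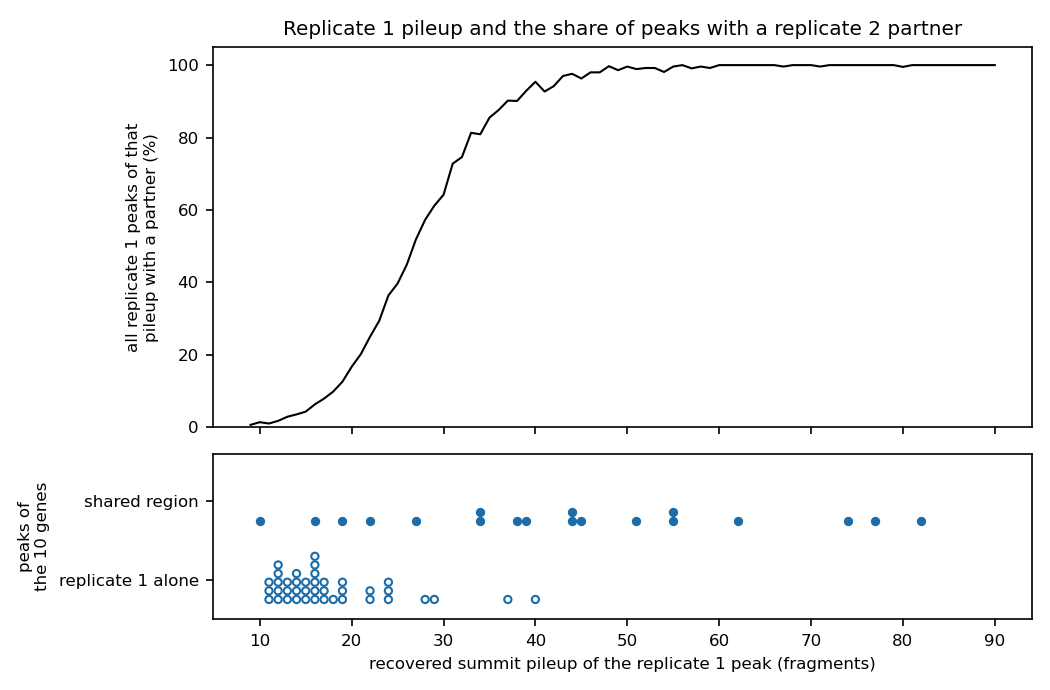
Upper panel, share of all replicate 1 peaks that have a replicate 2 partner (percent) against their recovered summit pileup (fragments). Lower panel, the pileups of the 59 replicate 1 peaks at the 10 genes, filled where the peak has a partner and open where replicate 1 stood alone. Open points gather under 30 fragments, with the 2 exceptions at 37 and 40.

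The wider machinery of adhesion and fusion was described with 69 further genes. A shared region was found at 65 of them (94.2%), and within 1 kb of an end at 57 (82.6%). The rates over all protein-coding genes, 63.6% and 54.0%, are for shorter genes, with a median span of 17.3 kb against 54.5 kb in this list and 96.2 kb among the 10 genes. The median of the lower fold at a gene's strongest shared region was taken only over genes that had such a region. It was 12.3 over the 8 members, 15.6 over the 65 genes of the wider list and 14.8 over the protein-coding genes. The highest of the list was Nckap1, a subunit of the WAVE complex that promotes branched actin, with folds of 29.1 in replicate 1 and 29.96 in replicate 2. Dock5, a relative of Dock1, had 31.3 and 28.8, and the integrin alpha V gene Itgav had 27.8 and 31.1. Fer1l5, another ferlin, had 27.1 and 31.5 at a region outside the gene, beyond its lower-coordinate end and within 1 kb of Kansl3.

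The genes of the list without a shared region were Vcam1, Anxa1, Cavin4 and Capn3. Vcam1, a ligand of integrin alpha 4, had a single replicate 1 peak. The membrane repair annexin gene Anxa1, the muscle cavin gene Cavin4 and the muscle calpain gene Capn3 had no peak in either replicate. Mymx, chosen for mention after its values were seen because its product myomerger acts with myomaker, had 3 shared regions in its window by overlap, 2 of them with the summits of both replicates inside it. The region inside the gene, with summits 571 and 568 bp from an end, had folds of 13.1 in replicate 1 and 5.69 in replicate 2. Another, outside the gene and 1432 and 1371 bp from an end, had folds of 15.5 and 12.002. The remaining region, with folds of 22.99 and 21.998, touches the window by 5 bp, with both summits outside it, and lies within 1 kb of the neighbouring gene Slc29a1. Mymx spans only 1.2 kb, so most of its window is flanking sequence.

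**Figure D5:**
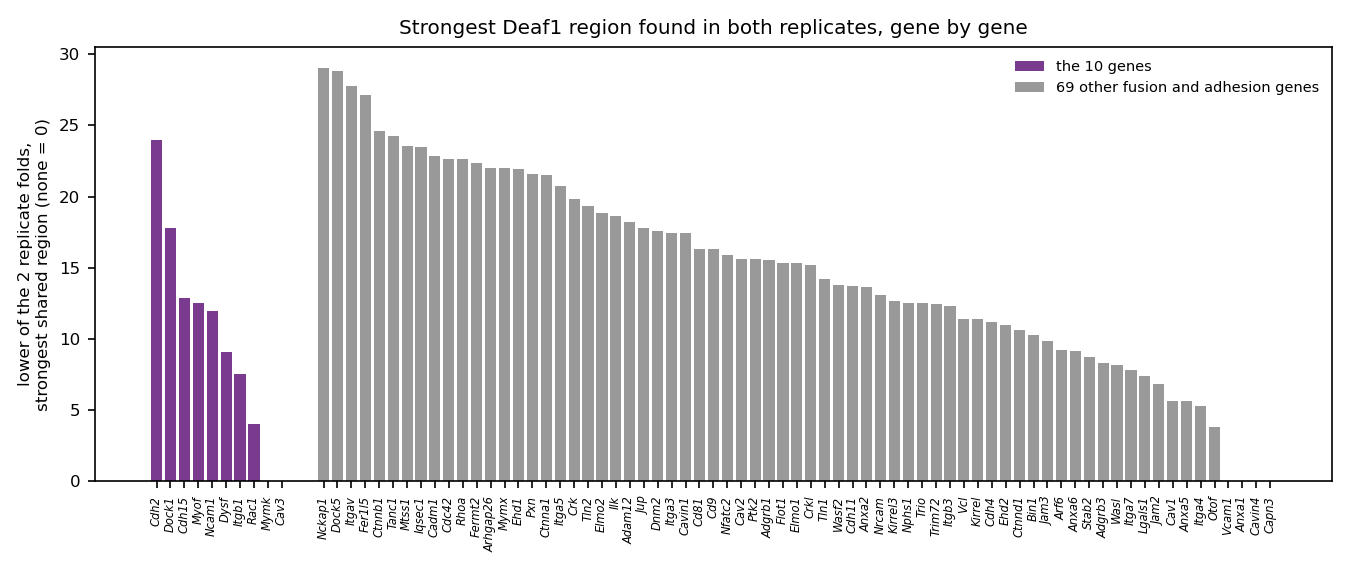
Lower of the 2 replicate folds at the strongest shared region within 5 kb (vertical axis, bars from 0), for the 10 genes in purple at left and the 69 other fusion and adhesion genes in grey at right, each sorted. Genes without a shared region are drawn at 0. The Mymx bar stands for the region that touches its window by 5 bp. Cdh2 leads the 10 genes at 23.9 and Nckap1 the other genes at 29.1.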

How the data were processed

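Peaks were called separately in the 2 Deaf1 ChIP samples, and the authors deposited both lists. BWA, MACS2 and mm10 are named per the submitters' processing notes. Not given in the sources used here are their versions, settings and control. The fold, a ratio of summit signal to local background, and each peak's −log10 q-value and −log10 p-value are deposited by the authors. The deposited score only restates p. The deposited positions were converted to 1-based coordinates.

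The files give no read depth. Summit pileup k and background b were recovered as the whole k for which (k + 1)/(b + 1) gives the deposited fold and the Poisson probability of more than k fragments gives p. The largest misfit was 4.07e-05. In 2000 peaks simulated from the recovered values with the same formulas, 100% of pileups were recovered. That checks the inversion, not whether the pileups are the true fragment counts. Intervals are exact Poisson and cover counting error only. Values were computed with Python 3.11.15, pandas 2.3.3 and scipy 1.17.1.

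Gene spans and promoter sequences came from RefSeq (GRCm38.p6). The spans carry no strand, so ends are called lower or higher by coordinate except at promoter entries. The 10 genes, the wider list (70 entries, matching 69 genes) and the windows were chosen with earlier results of these data known, so no test was made. All members are named. From the wider list the 4 genes with the highest lower fold, and those with no shared region, are named. Alternatives covered the window, peak thresholds, overlap, list length, placement by summit and single replicates. Input samples were not analysed here.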

Additional observations from a re-analysis of the deposited data

How the results depend on the processing

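No paired analysis was possible because only the ChIP samples had peak lists, so the numbers shared with the inputs pair nothing. The count of 8 genes with a shared region was the same with windows of 0, 1, 2 and 10 kb, a −log10 q of 5 or more, an overlap of 50% of the shorter peak, equal list lengths and placement by summit. It was 7 with a fold of 5 or more, which leaves out Rac1, and 6 with summits within 100 bp, which leaves out Rac1 and Dock1. Single replicates gave 8 to 10. Genes with a region at an end fell to 5 with summits within 100 bp and to 7 with both summits inside the end window. The shares of all genes at an end under these rules were not computed. The 19 shared regions compare with 22 to 59 peaks in single replicates, the higher in replicate 1. Over all genes the share, 63.6% in the main setting, moved with the rule too. It fell to 60.7% under the fold rule and to 56.8% when summits had to lie within 100 bp. Widening the window from 0 to 10 kb raised it from 58.8% to 66.2%. Single replicates gave 64.2% and 72.9%. The median strongest fold, 12.3 over 8 genes, was 10.5 with windows of 0, 1 and 2 kb, where the region beyond Cdh15 is lost. With summits within 100 bp it was 10.8, over the 6 genes left. With single replicates it was 12.7 over 8 genes in replicate 2 and 13.7 over all 10 genes in replicate 1. These medians thus cover different sets of genes. For single genes, 79 of 93 alternatives moved the strongest fold by less than the spread of that gene's 2 replicate folds. Settings in which a gene lost its shared regions are not among the 93. These were summits within 100 bp for Rac1 and Dock1, and a fold of 5 or more for Rac1. Leaving out the replicate with the lower fold moves the value by design, so this count does not show how stable the folds are. The cause of the difference between the replicates' lists was not tested. Read depth is not known from these files. At a pileup of 16 fragments 6.33% of replicate 1 peaks had a partner in the shorter list.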
